A study of Caenorhabditis elegans with 2 samples.

Results

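The genes described here encode proteins of the spliceosome and of its small nuclear ribonucleoproteins (snRNPs) in the nematode Caenorhabditis elegans. They are the 33 protein-coding genes whose names begin with snr- (7 genes), rnp- (9), prp- (13), sap- (2) or uaf- (2), out of 19971 protein-coding genes on the 6 nuclear chromosomes of assembly WBcel235 (build ce11). Membership rests on the name alone, and a few members are not core splicing factors, such as rnp-8, whose product works with the poly(A) polymerase GLD-2 in the germ line.

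The spliceosome removes introns from pre-mRNA and is built from snRNPs, each made of 1 or more small nuclear RNAs (snRNAs) and a set of proteins. A ring of Sm proteins, which the snr genes encode, binds the U1, U2, U4 and U5 snRNAs, and further proteins are particular to each particle. SNPC-4 carries Myb domains and belongs to SNAPc, a complex that binds the promoters of snRNA genes and activates them. The protein-coding genes of the spliceosome are ordinary mRNA genes of RNA polymerase II. The comparison made here is how often, how strongly and where SNPC-4 was found at the genes for the protein partners of the snRNAs.

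The libraries came from whole hermaphrodite young adults of strain YL551, a transgenic line that stably expresses SNPC-4 with a C-terminal GFP-FLAG tag. The worms were collected 60 hours after synchronisation as starved L1 larvae, and their sonicated chromatin was immunoprecipitated through the GFP tag and sequenced (ChIP-seq). The 2 biological replicates form a single group with no second condition, and whole animals were used, so the tissue in which a site was bound is unknown. The values are lists of regions with a summit position and a signal, which is the authors' own peak score. The 2950 summits that passed the authors' irreproducible discovery rate (IDR) filter in the pooled replicates are called IDR summits, and their median pooled signal was 141. Each list of candidate regions, made without that filter, held 30000 summits. Read counts were not used here, so depth and the error it gives are unknown. A replicate's signal was divided by its own median at the IDR summits (71.3 in replicate 1 and 78.9 in replicate 2) and is called the relative signal. A gene counts as having a summit when an IDR summit lay within 500 bp of any of its annotated 5' ends. Many worm genes are trans-spliced, so an annotated 5' end can lie downstream of the place where transcription starts.

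SNPC-4 summits lay at 6 of the 33 genes, and only 1 of the 6 was strong. The 6 were snr-4, prp-40, prp-8, snr-1, snr-3 and sap-140, a share of 18.2% (exact binomial 95% interval 6.98 to 35.5, counting error only). Over all protein-coding genes the share was 7.45% (1487 of 19971), a value that lies inside that interval. The snr genes had summits at 3 of 7, the prp genes at 2 of 13, the sap genes at 1 of 2, and the rnp and uaf genes at 0 of 9 and 0 of 2. By chromosome, summits were found at 3 of 11 genes on III, at 1 of 4 on II, at 1 of 5 on IV and at 1 of 5 on V, and at 0 of 7 on I and 0 of 1 on X. No test of the share was run, and genes are not replicates.

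The strong summit was the one near snr-4, which encodes the Sm protein SmD2. Its pooled signal was 6101, and the signals were 2643 in replicate 1 and 3535 in replicate 2. It held rank 26 of the 2950 IDR summits, and rank 26 in each replicate's own list as well. The relative signal was 40.9 ± 5.46 (SD, n = 2), so the spread between replicates was small against its size. The IDR filter selects for reproducible regions, so agreement between the replicates at any IDR summit may partly follow from that selection. The pooled signal was 31.4 times that of the next gene of the set. Among the 1487 protein-coding genes with a summit, 0.336% had a stronger one.

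That summit lay beside an snRNA gene. The region ran over 1149 bp, from V 11979651 to 11980799, and its summit at 11980064 was 341 bp upstream of the 5' end of snr-4 (WBGene00004917, minus strand) at 11979723. On the other strand, 54 bp beyond the summit, starts C52E4.8 (V 11980118 to 11980261), a gene for U4, the snRNA that pairs with U6 before splicing; the annotation itself gives its class as snRNA with no U number. The 5' ends of snr-4 and of the U4 gene are 395 bp apart and point away from each other. The region extended over the 5' end of snr-4, but replicate 1 put its summit 340 bp upstream of that end and replicate 2 put it 341 bp upstream, at the same place as the pooled list to within 1 bp. An unclassified noncoding RNA gene, C52E4.14 (V 11979959 to 11980101, plus strand), is annotated across the summit. This was the only 1 of the 6 summits with an RNA gene of any class within 500 bp, and the signal cannot be divided between the U4 gene, C52E4.14 and snr-4. U4 genes are a family, and reads from near-identical copies may be split between them.

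The sequence between the genes is shown because the summit falls on it. The 100 bases before the U4 gene, at V:11980018-11980117 of ce11 on the plus strand, are given from the RefSeq genome with the 25 bases centred on the summit in capitals.
Upstream of C52E4.8: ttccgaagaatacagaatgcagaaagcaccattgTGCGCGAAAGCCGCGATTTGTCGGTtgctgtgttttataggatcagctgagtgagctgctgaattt
The capitals hold the word TGTCGG, whose first base is 48 bases upstream of the U4 gene. Another 81 snRNA and spliced leader (SL) RNA genes were bound within 250 bp, meaning that an IDR summit lay that close to their start. Of these, 35 hold TGTCGG in the 100 bases upstream, read in the direction of the gene, with a median start of 47 bases upstream. The word AACCCG, the most frequent 6-letter word of those regions (39 of 81, median start 58 bases upstream), is not in the U4 stretch on either strand. The choice of TGTCGG was made after the U4 stretch had been read and after other rules had been tried. The most frequent word of 8 letters, CGGAACCC (27 of 81), and the word picked first as the second 6-letter word, GTACAC (28 of 81, median start 42 bases upstream), are both absent from the U4 stretch. GTACAC was the most frequent word sharing no run of 3 letters with AACCCG; the rule was then loosened to runs of 4 letters, which gave TGTCGG. The match of TGTCGG at the U4 gene is therefore a description of a chosen word and supports nothing. TTTATA, the reverse complement of the TATA word TATAAA, begins 33 bases upstream of the U4 gene. Related gene copies share their flanks, so these counts are not of independent sequences.

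Of the other 5 genes, prp-40 had its summit at rank 922 of 2950, and the other 4 between ranks 1851 and 2078. Their median pooled signal was 118, and with snr-4 the median of all 6 was 120, against 137 for the 1487 protein-coding genes with a summit. The weakest IDR signal was 84.4, so 4 of the 5 stood at 1.30 to 1.43 times the lower edge of the list and prp-40 at 2.30 times. The plot of signal by rank shows this gap between snr-4 and the rest.

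**Figure D1:**
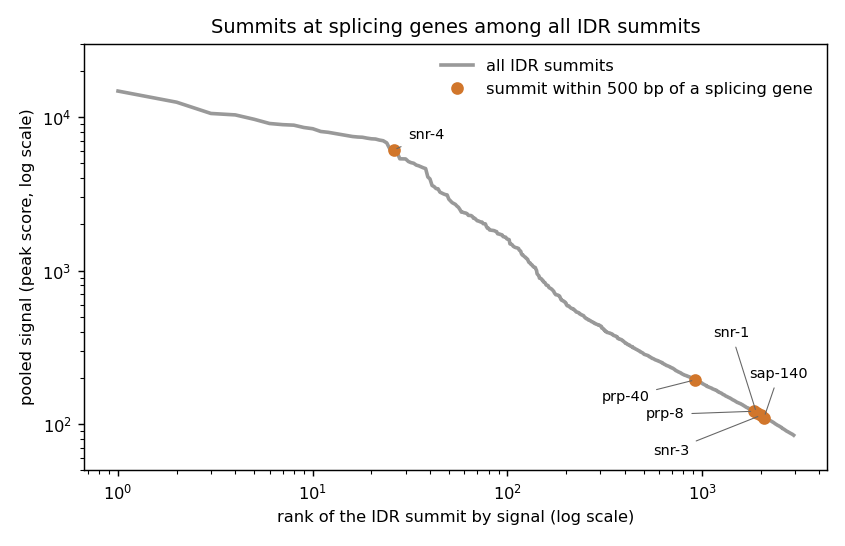
Pooled signal (authors' peak score, log scale) against rank for all 2950 IDR summits (grey line), with the summits within 500 bp of the 33 spliceosome and snRNP genes as points. The snr-4 summit sits at rank 26 and the other 5 between ranks 922 and 2078.

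Of the 2 prp genes with a summit, prp-40 had the stronger. Its product is known from yeast as a U1 snRNP protein that helps to bridge the ends of an intron. The summit (region III 9521784 to 9522007) had a pooled signal of 194, with 94.4 in replicate 1 and 105 in replicate 2, and held rank 922. The relative signal was 1.33 ± 0.00721 (SD, n = 2), above the median IDR summit in both replicates. It lay 201 bp upstream of prp-40 (WBGene00014218) and 414 bp from the 5' end of clu-1, a gene on the other strand.

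prp-8 encodes the large U5 protein at the catalytic centre of the spliceosome. Its summit (region III 8163788 to 8164243) had a pooled signal of 121, with 58.2 and 74.0 in replicates 1 and 2, and lay 357 bp upstream of prp-8 (WBGene00004187). The relative signal was 0.877 ± 0.0860 (SD, n = 2). Apart from snr-4, this was the 1 summit of the 6 with no 5' end of another protein-coding gene within 500 bp. The gene also holds the snoRNA genes C50C3.13 and C50C3.14, whose 5' ends were 1524 bp and 4227 bp from the nearest IDR summit.

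Both other snr genes with a summit have a neighbour whose 5' end is nearer to that summit. snr-3 encodes SmD1, and its summit (region II 6489751 to 6490206) had a pooled signal of 114, with 56.5 and 56.8 in the replicates and a relative signal of 0.756 ± 0.0513 (SD, n = 2). It lay 218 bp upstream of snr-3 (WBGene00004916) and 186 bp upstream of rsp-5 on the other strand, which encodes an SR protein, a class of splicing factors rich in arginine and serine. The summit was placed between these divergent splicing genes in every list, at 218 bp from snr-3 in replicate 1 and 198 bp in replicate 2.

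snr-1 encodes SmD3, and its summit (region IV 17087354 to 17087809) had a pooled signal of 118. The signals were 40.6 in replicate 1 and 73.1 in replicate 2, a relative signal of 0.747 ± 0.253 (SD, n = 2). In replicate 1 it held rank 3504 of the candidate summits, outside the 2950 strongest, and in replicate 2 rank 1636. It lay 467 bp upstream of snr-1 (WBGene00004914) and 144 bp from the 5' end of snx-13, a sorting nexin gene on the other strand.

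sap-140 had the summit closest to a 5' end. RefSeq describes its product as a U2 snRNP-associated protein with a SURP motif. The summit (region III 7499436 to 7499891) had a pooled signal of 110, with 47.3 and 66.6 in the replicates and a relative signal of 0.754 ± 0.127 (SD, n = 2). It lay 13 bp upstream of sap-140 (WBGene00015581), 49 bp upstream in replicate 1 and 5 bp upstream in replicate 2. The 5' end of C07H6.9, which is on the other strand, was 193 bp from the pooled summit.

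All 6 summits lay upstream of the annotated 5' end, at a median of 279.5 bp, against a median absolute distance of 215 bp and 86.0% upstream for the 1487 protein-coding genes with a summit. At 4 of the 6 genes the summit was also within 500 bp of the 5' end of another protein-coding gene, and each of these neighbours was on the opposite strand. The same held, on either strand, for 579 of the 1487 genes (38.9%), so such sharing is common in the list. Counting a summit only for its nearest protein-coding 5' end left 4 of 33 genes (12.1%), without snr-1 and snr-3, against 6.03% of all genes. RNA genes did not enter this rule, so snr-4 stayed although the U4 gene starts nearer to its summit. Without summits that had an RNA gene within 500 bp, 5 of 33 remained (15.2%), all but snr-4, against 5.83%.

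The genes nearest to the 500 bp limit were snr-1 and prp-19. The member with the most distant summit inside it was snr-1, at 467 bp, and the next outside was prp-19, at 638 bp. prp-19 encodes the ubiquitin ligase of the Prp19 complex, which acts in the activation of the spliceosome. Its summit (region III 5172602 to 5172793) had a pooled signal of 198 and a relative signal of 1.38 ± 0.0169 (SD, n = 2). That summit was nearer to another gene, at 37 bp from the 5' end of K10D2.5 on the other strand.

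**Figure D2:**
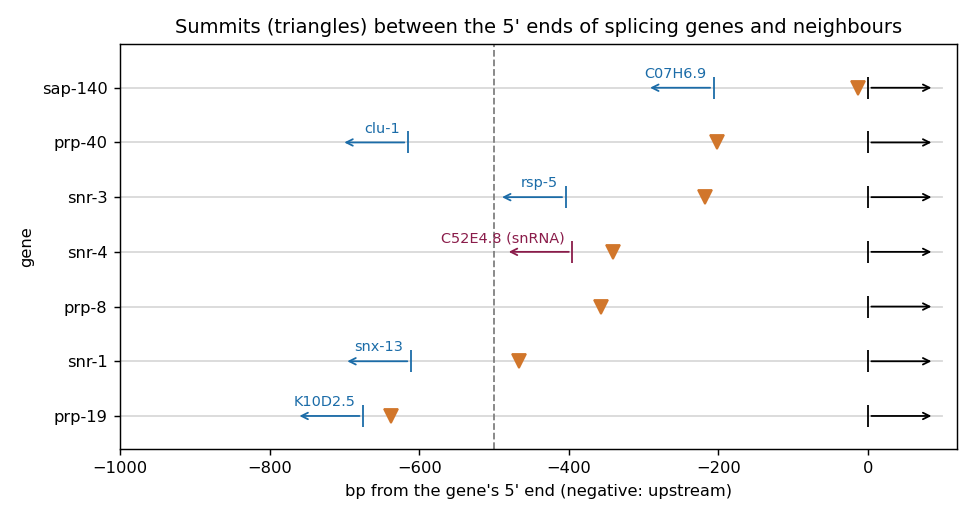
Position of the summit (triangle) in bp from the 5' end of each gene with an IDR summit within 1000 bp. Black arrows are the genes of the set, blue arrows the nearest other protein-coding gene and the purple arrow the U4 gene C52E4.8. The blue arrows are placed by distance alone, with their side of the summit assumed. The dashed line marks the 500 bp limit, inside which 6 genes fall; prp-19 at 638 bp falls outside.

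The windows around 4 weaker summits are printed because they can be set beside the U4 stretch. Each is 101 bases of the RefSeq genome (build ce11) on the strand of the gene, and none overlaps an annotated mRNA exon. The 25 bases centred on the pooled summit are in capitals. The summits of replicates 1 and 2 lay 30 and 44 bp from it at prp-8 and 24 and 26 bp at snr-1. They lay 0 and 20 bp from it at snr-3, and 1 and 9 bp at prp-40. The capitals thus miss both replicate summits at prp-8 and snr-1, and that of replicate 2 at snr-3. The regions of prp-8, snr-1 and snr-3 were each 456 bp wide with the pooled summit in the middle.
prp-40, III:9521824-9521924, plus strand: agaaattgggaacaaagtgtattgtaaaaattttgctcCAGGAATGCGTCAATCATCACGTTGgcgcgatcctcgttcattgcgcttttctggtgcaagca
prp-8, III:8163966-8164066, plus strand: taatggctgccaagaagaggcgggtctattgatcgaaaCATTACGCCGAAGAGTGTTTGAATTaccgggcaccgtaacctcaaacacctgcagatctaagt
snr-1, IV:17087532-17087632, plus strand: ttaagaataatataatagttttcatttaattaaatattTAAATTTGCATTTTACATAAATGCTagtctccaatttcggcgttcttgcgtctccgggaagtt
snr-3, II:6489929-6490029, minus strand: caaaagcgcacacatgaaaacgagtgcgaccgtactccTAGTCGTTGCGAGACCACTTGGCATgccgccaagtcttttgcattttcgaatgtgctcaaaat
None of these 4 windows holds TGTCGG on either strand, and neither AACCCG nor the word GTACAC is there. Within 100 bp of the summit, on either strand, TGTCGG was found at 2 of the 6 summits, those of snr-4 and prp-40, and in 12.9% of the 1262 IDR windows near a protein-coding 5' end. AACCCG was found at 0 of the 6 and in 7.84% of those windows, GTACAC at 0 of the 6 (11.1%) and CGGAACCC at 0 of the 6 (4.83%). TATAAA was found at the summits of snr-4 and snr-1 (16.7% of the windows), and CTGTTTCA, the upstream element of piRNA genes, at 0 of 6 (0.951%).

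Over all 33 genes, promoters of 300 bases (250 before to 50 after the outermost 5' end) held these words at low counts. CTGTTTCA was in 1 promoter, that of uaf-2, or 3.03%, against 2.33% of 19971 promoters. TGTCGG was in 4 (12.1%, prp-6, rnp-3, rnp-8 and snr-4) against 6.91%, and AACCCG in 3 (9.09%, prp-6, prp-18 and rnp-3) against 5.31%. The stretch taken for rnp-3, which starts at IV 4174089, runs into rnp-2, which ends at 4174016 on the same strand. Its matches may therefore lie inside rnp-2. GTACAC was in 4 (12.1%, prp-39, prp-6, prp-9 and rnp-7) against 7.33%, and CGGAACCC in 0 against 0.280%. TATAAA was in 7 (21.2%) against 37.9%. Both strands were searched, CGGAACCC contains all but the last letter of AACCCG, and a match is a description of the sequence, not of binding.

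The remaining 27 genes had no IDR summit within 500 bp, and 18 of them had a candidate summit in the pooled list. Those candidates had a median pooled signal of 45.5, from 15.4 at rnp-5 to 75.9 at prp-38, all below the weakest IDR signal of 84.4. The 6 genes with a summit held the same ranks in the pooled candidate list as among the IDR summits. Lying below the weakest IDR signal may thus follow from how the genes were split. With the 6 above, 24 of 33 genes (72.7%) had a pooled candidate, against 36.1% of all protein-coding genes. Of the 27, 13 had a candidate in the pooled list and in each replicate. The share of all protein-coding genes with a candidate in every list, or in none, was not computed.

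The strongest of these candidates fell just short of the list. prp-38, whose yeast counterpart acts in tri-snRNP activation, had a pooled signal of 75.9 and relative signals of 0.533 and 0.537 in replicates 1 and 2. prp-9, whose yeast counterpart is a subunit of the U2 particle SF3a, had 74.6 and relative signals of 0.538 and 0.498. In replicate 1 both were close below snr-1, the lowest of the 6 there at 0.569, and in replicate 2 below snr-3, the lowest there at 0.720. The candidates of snr-6 (SmE, pooled 64.8), rnp-6 (the PUF60 splicing factor, 64.4) and rnp-1 (65.3) came next. The summit of snr-6 lay 480 bp downstream of its 5' end. The gene is shorter than that (III 12429172 to 12429629), so the summit was beyond its 3' end. At rnp-1 the strongest candidate had a relative signal of 0.591 in replicate 1 and 0.133 in replicate 2, at different positions, so the replicates differed there.

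Among the other Sm genes, signals were lower still. snr-2 (SmB) had a pooled candidate of 43.9, with a relative signal of 0.416 in replicate 2 and no candidate in replicate 1. snr-5 (SmF) had 28.4, with relative signals of 0.189 and 0.173. snr-7 (SmG) had no pooled candidate and a relative signal of 0.152 in replicate 1 alone. The 7 Sm proteins form 1 ring, and their genes thus ran from a relative signal of 40.9 beside the U4 gene to no candidate in the pooled list.

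Apart from the Sm genes, the genes prp-31, prp-3 and prp-4 encode proteins particular to the U4 and U6 particle, and these 3 had no IDR summit. prp-31 had a pooled candidate of 60.1, prp-3 of 28.0 and prp-4 of 17.4. rnp-7, which encodes a protein of the U1 snRNP, and rnp-3 had no candidate in any list. Nor had uaf-1, for the large subunit of the U2AF factor that binds the 3' splice site, prp-6, prp-17 or rnp-9, which makes 6 genes. uaf-2, for the small U2AF subunit, had a pooled candidate of 41.4 and relative signals of 0.248 and 0.367.

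The rest lay in the same range. rnp-4, which encodes the exon junction protein Y14, had a pooled candidate of 57.8, rnp-2 of 62.2, rnp-8 of 47.2, prp-39 of 41.8 and prp-19 of 23.5. prp-18, for a factor of the second splicing step, had relative signals of 0.349 and 0.214. sap-49, for a subunit of the U2 particle SF3b, and prp-21 had no pooled candidate, and their relative signals in replicate 2 were 0.131 and 0.334. In replicate 1, 16 of the 27 had a candidate, with relative signals from 0.152 to 0.591 (median 0.303). In replicate 2, 18 had one, from 0.131 to 0.537 (median 0.389). Shares over all protein-coding genes were not computed for these counts by replicate. No IDR summit lay inside the body of any of the 33 genes. That includes the genes uaf-1, uaf-2 and prp-8, which hold snoRNA genes, and prp-6, which holds mir-5552. The share of all protein-coding genes with a summit in the body was not computed, so this count has no reference.

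**Figure D3:**
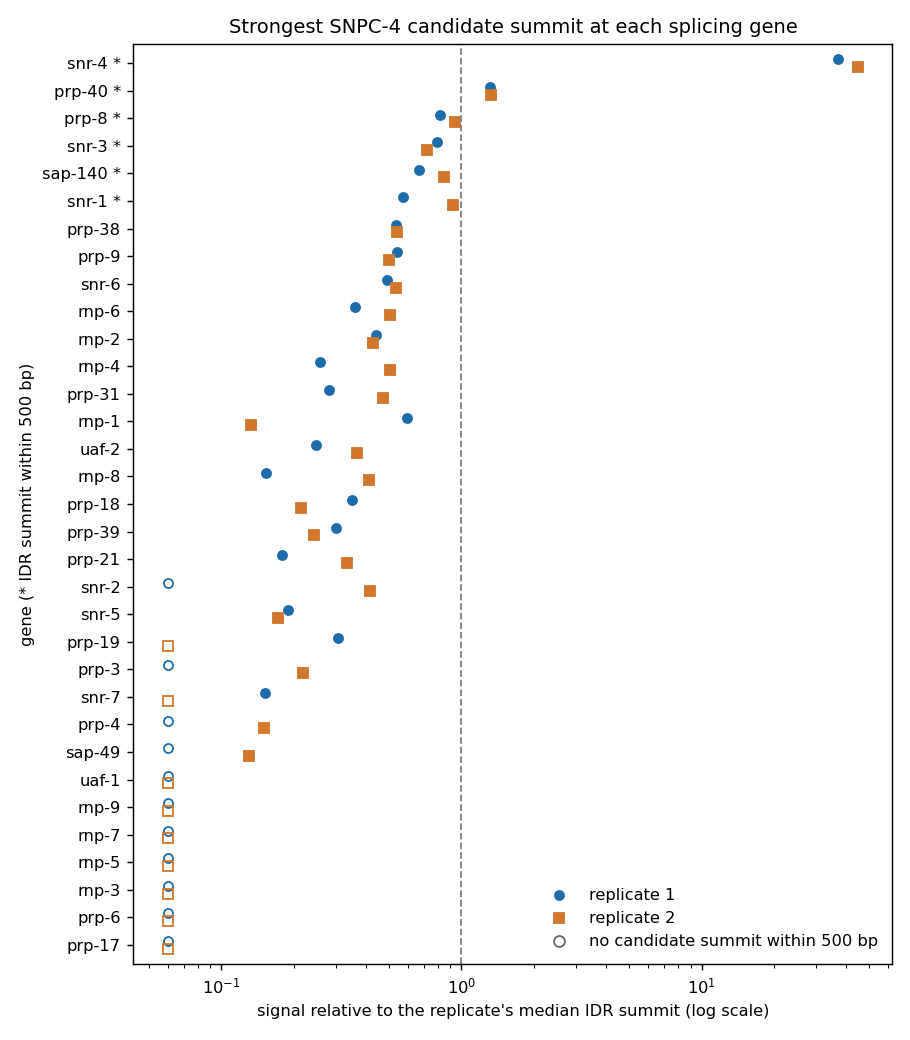
Signal of the strongest candidate summit within 500 bp of each of the 33 genes, divided by the replicate's median IDR summit (log scale), in replicate 1 (circles) and replicate 2 (squares); open symbols at the left edge stand for no candidate and carry no value. Only snr-4 and prp-40 exceed 1 (dashed line), snr-4 at 37.1 and 44.8.

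The count rested on the distance and the list used. At 100 bp, 1 gene remained (sap-140, 3.03%, against 1.53% of all genes). At 250 bp there were 3 (9.09%, against 4.52%), without snr-4, whose summit is 341 bp away, and at 1000 bp there were 7 (21.2%, against 10.2%). The 1475 IDR summits with the highest signal gave 2 genes, snr-4 and prp-40 (6.06%, against 3.56%). The 2950 strongest candidates of replicate 1 alone gave 5 (15.2%, against 6.62%), all but snr-1, and of replicate 2 alone the same 6 (18.2%, against 7.48%). Any overlap of the whole region also gave the same 6 (18.2%, against 8.62%), as did the outermost 5' end alone (against 7.08%).

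Other genes of splicing, taken from 4 lists by function, had a summit in 33.7% of cases, and the difference from the 33 was not tested. Of 93 names, 83 were in the annotation, and 28 of the 83 genes had an IDR summit (33.7%, exact binomial 95% interval 23.7 to 44.9), against 7.45% of all protein-coding genes. These were 15 of 44 other snRNP and splicing factors, 8 of 19 SR proteins and hnRNPs, 4 of 12 genes of snRNP assembly and trans-splicing, and 1 of 8 Lsm genes. Genes and summits are not the same count here: snu-13 and rsp-7 shared a summit, and rsp-5 was counted through the summit of snr-3. The intervals of the 83 and of the 33 genes overlap, and the lists were drawn up with the results of the series known. At 24 of the 28 genes (85.7%) a summit with no RNA gene within 500 bp was present, against 78.3% of the 1487 protein-coding genes with a summit. At 14 of the 28 the summit was also within 500 bp of another protein-coding 5' end, against 579 of the 1487 (38.9%).

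Signals at these genes were of the same order as at the 5 weaker genes. The median pooled signal of the 28 was 134, from 85.2 to 466. The strongest was mog-4, for a DEAH-box helicase of the PRP2 type, with a pooled signal of 466 (204 and 264 in the replicates) and a relative signal of 3.10 ± 0.348 (SD, n = 2). It was followed among splicing factors by syf-2 (260, relative signal 1.72 ± 0.0131, n = 2) and rbm-25 (259, relative signal 1.75 ± 0.597, n = 2), both near the 5' end of a gene on the other strand. In the SR and hnRNP list rsp-2 (283), hrpu-1 (226) and hrpk-1 (186) led.

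The assembly list was led by smn-1, which encodes the SMN protein that loads the Sm ring onto snRNAs. Its summit had a pooled signal of 259 and a relative signal of 1.69 ± 0.0433 (SD, n = 2). That summit lay 135 bp upstream of smn-1 and 81 bp from the 5' end of klp-16, and fell within an annotated microRNA gene. prmt-5 (137), for the methyltransferase of Sm proteins, and smr-1 (129) followed. A ring of Lsm proteins binds U6 snRNA, and lsm-7 alone of the 8 Lsm genes listed had a summit. At 85.2 it was near the lower edge of the list, with relative signals of 0.238 in replicate 1 and 0.753 in replicate 2, and dnc-1 was nearer to it (68 bp against 231 bp). All 8 Lsm genes had a pooled candidate, against 36.1% of all protein-coding genes.

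**Figure D4:**
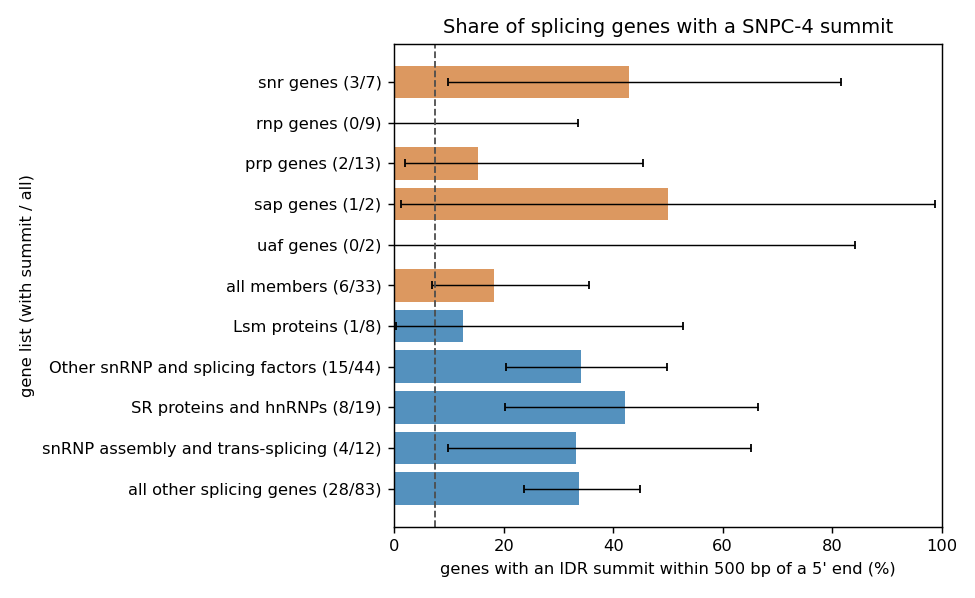
Share of genes with an IDR summit within 500 bp of a 5' end, for the 33 genes by name (orange) and for the 4 lists of other splicing genes (blue); error bars are exact binomial 95% intervals and the dashed line is the 7.45% of all protein-coding genes. The 33 genes stand at 18.2% and the other splicing genes at 33.7%.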

How the data were processed

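ChIP-seq region lists for tagged SNPC-4 in 2 biological replicates were analysed. The signal of a region is the score of the authors' peak caller, deposited per region, on a scale that depends on depth. The -log10 q-value deposited by the authors was 3.90 at every IDR summit and was not used. The other deposited value is the summit offset, converted to 1-based positions. Per the deposited file listing, the pooled candidate list derives from both replicates' alignments and 1 further file that the listing does not describe. The labels name a possible control, not analysed here. Aligner, caller and IDR threshold: not given in the sources used here. Lists in build ce10 were not used.

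Genes and sequence came from RefSeq for WBcel235 (WormBase WS298), whose chromosome lengths contain all ce11 regions. Each IDR summit took the strongest replicate region that contains it (2926 and 2921 of 2950 in replicates 1 and 2). Python 3.11.15, pandas 2.3.3 and scipy 1.17.1 were used. Assignment of summits was tested on simulated data. The members and lists were chosen with earlier results of these data known, and no significance test was run. Genes named were those with a summit within 1000 bp, all snr genes, the strongest candidates and the 3 strongest of each list; the rest of the 33 were named to account for all. Except for CTGTTTCA and the TATA word, the words searched were taken from the regions upstream of bound snRNA and SL RNA genes, C52E4.8 left out. Words of 8 letters were tried first (CGGAACCC), then words of 6 (first AACCCG); the second 6-letter word was GTACAC under the first rule (no run of 3 letters shared with AACCCG) and TGTCGG under a looser rule (no run of 4), adopted after the sequence upstream of C52E4.8, which holds TGTCGG, had been seen. Results for all of them are given.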

Additional observations from a re-analysis of the deposited data

How the results depend on the processing

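Of 32 alternative values, 19 stayed within 1.5 times the reported count, the spread between replicates or the binomial interval, and 13 did not. The count of 6 genes with a summit became 1 at 100 bp, 3 at 250 bp, 2 with the 1475 highest summits and 24 with all pooled candidates; leaving out a replicate gave 5 to 6. Without the summit at the U4 gene, an alternative chosen after seeing the data, it was 5. The 28 other splicing genes became 7 at 100 bp and 18 at 250 bp, and 19 to 29 with 1 replicate left out. The 19 came from replicate 1 alone. The median summit position of -279.5 bp was -201 at 250 bp and -341 at 1000 bp, and -279 to -261.5 with 1 replicate left out. A shorter limit takes in fewer genes by construction. The median relative signal of the 6 genes, 0.847 in the pooled list, ran from 0.804 to 0.932 with 1 replicate left out. Within 100 bp of the 6 summits in place of the promoters of 33 genes, CTGTTTCA matched 0% in place of 3.03%, AACCCG 0% in place of 9.09%, TGTCGG 33.3% in place of 12.1% and GTACAC 0% in place of 12.1%. TGTCGG and GTACAC are the second word under the later and the earlier selection rule, so the share at the summits depended on a rule changed after seeing the data. No paired analysis was possible because there was 1 group. With read counts not used, depth could not be set against any of these values.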
